A study of Mus musculus with 24 samples.

Results

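Gene expression was compared between 2 brain regions of the mouse, the amygdala and the hippocampus, over all 24 arrays of the series: 12 arrays titled amygdala and 12 titled hippocampus, so that every array of the study enters the comparison. Each array, a 1-colour Affymetrix design, was hybridised with total RNA of 1 region. The mice descend from crossing 2 inbred strains, C57BL/6J with A/J, and were selected on contextual fear conditioning, in which an animal freezes in a place where it was shocked. Each region holds 6 arrays of animals labelled low freezing and 6 of animals labelled high freezing, and the freezing label was a covariate in the model. All 4 groups carry the alleles of the same 2 parental strains, and no group is described as treated, mutant or transgenic. Age, sex, dissection and the number of animals behind an array are not given in the sources used here, so p-values measure the spread between arrays, part of which may be technical.

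The hippocampus is a simple form of cortex that develops from the pallium, and its principal cells are the glutamatergic granule cells of the dentate gyrus and pyramidal cells of the CA fields. The amygdala is a composite: its basolateral nuclei hold cortex-like glutamatergic neurons, whereas its central nucleus and intercalated cell clusters consist mainly of GABAergic neurons of subpallial origin, related to those of the striatum. It borders the caudal striatum, the globus pallidus, the optic tract, the piriform cortex and the temporal horn of the lateral ventricle with its choroid plexus. In whole tissue, fewer cells of a type and less RNA per cell cannot be told apart.

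The values are intensities, 1 per probe set, and were tested as log2(intensity + 16); every fold below is on that scale, which understates the change of dim probe sets. The arrays themselves differed in median: amygdala arrays had 41.8 ± 1.39 intensity units, hippocampus arrays 38.9 ± 1.65 (SD, n = 12 each; permutation p = 0.0002, two-sided, adjusted p = 0.0006 over 3 array measures). The same held within the low freezing arrays (41.0 ± 1.38 against 37.8 ± 0.744, n = 6 each; exact permutation p = 0.00217) and within the high freezing arrays (42.7 ± 0.790 against 39.96 ± 1.65, n = 6 each; exact permutation p = 0.00433). For RNA integrity, the Gapdh 3'/5' ratio was 0.846 against 0.814 (permutation p = 0.11) and the actin ratio 1.88 against 1.79 (permutation p = 0.0989, n = 12 each), neither past the threshold. Correlations across probe sets lay between 0.969 and 0.982 among amygdala arrays, between 0.969 and 0.983 among hippocampus arrays and between 0.920 and 0.948 across regions, so every array resembled each array of its own region more than any of the other.

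Region was the main axis of these data. The first principal component held 52.4% of the variance and parted the regions without overlap, with hippocampus arrays between -43.8 and -35.4 and amygdala arrays between 31.8 and 49.7. The second held 4.61%: on it the 12 low freezing arrays lay between -20.2 and -2.16 and 11 of the 12 high freezing arrays above 0, the exception being amygdala high 7 at -7.94.

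**Figure D1:**
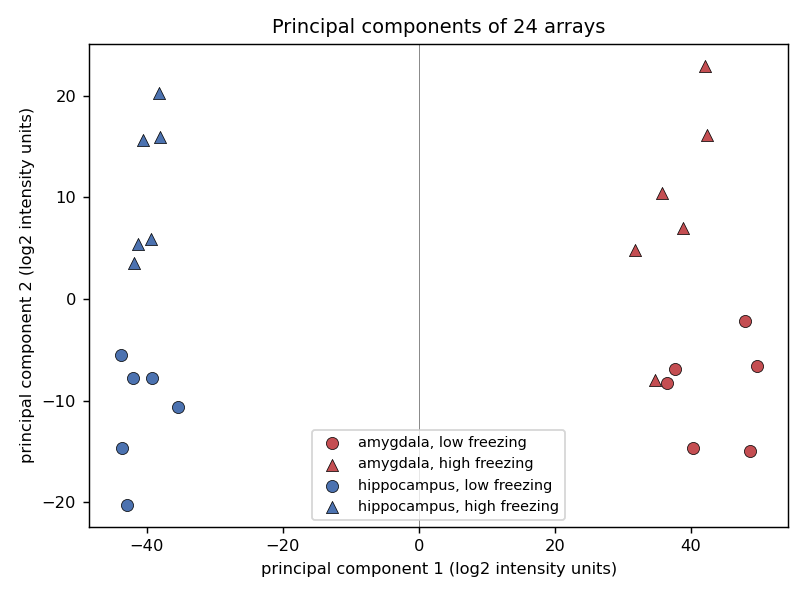
Each point is 1 array, placed by its first (x) and second (y) principal component in log2 intensity units; colour gives the region and shape the freezing label. The regions separate along x, from -43.8 to -35.4 against 31.8 to 49.7, and the freezing labels mostly along y.

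Of 27022 probe sets tested, 13899 passed the threshold of 0.05 on limma's adjusted p, which is 51.4%; 7357 were higher in the amygdala and 6542 lower. The balance of directions depends on the scaling: once array medians were set equal it was 5631 higher and 8613 lower, and with quantile normalization 6722 and 7331, because the median difference over all probe sets moved from 0.02 to -0.06 and -0.02 on the log2 scale. Most differences were small. Of the probe sets past the threshold 9906 (71.3%) differed by less than 1.5-fold and 1533 by at least 2-fold, 932 of them higher in the amygdala and 601 lower. Beyond 4-fold the counts were 155 and 54, and beyond 8-fold 19 and 3. Probe sets whose 12 amygdala and 12 hippocampus values did not overlap numbered 3574, or 13.2% of all, 1946 with the amygdala above and 1628 below. Bright probe sets passed more often than dim ones, 68.1% in the brightest of 4 equal bins against 32.3% in the dimmest.

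Taking each gene at its brightest probe set left 12491 genes. Past the threshold were 3973 genes higher in the amygdala, 31.8% of those tested, and 3074 lower, 24.6%. At least 2-fold higher were 562 genes (4.50%) and at least 2-fold lower 319 (2.55%). The median over all genes was 0.04 on the log2 scale. These shares are the background against which the gene groups below are read.

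Nearly all regional differences past the threshold had the same sign in both freezing groups. Within the low freezing arrays 11117 probe sets (41.1%) passed and within the high freezing arrays 10092 (37.3%), with 6 arrays per region in each. Of the 13899 probe sets that passed over all arrays, 13873 (99.8%) had the same sign in both groups and 8151 (58.6%) passed in each. The difference over all arrays is the mean of the 2 group differences, from the same arrays. Selecting probe sets on it makes such agreement likely, so the check is not independent of the selection. Among the 1533 that differed at least 2-fold, 1529 passed in both groups, 1305 of them at 2-fold or more in each. The 4 that did not were probe sets of Lefty1 and Norad, both lower in the amygdala, and 2 probe sets without a single gene symbol; they are named after their values were seen. Norad, a long noncoding RNA, differed by -1.63 in the low and -0.49 in the high freezing arrays on the log2 scale (adjusted p = 6.81e-08 and 0.0503); that is not its brightest probe set, which did not pass over all arrays.

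Across all probe sets the low and high freezing differences correlated with Pearson's r = 0.922, given as a description, since probe sets are not independent. The difference was larger in the low freezing arrays for 1083 of the 1533 probe sets (70.6%), and the median gap between the groups at these was 0.16 on the log2 scale. No probe set passed the test of the gap itself in limma: 1640 had an unadjusted p under 0.05 and the smallest adjusted p was 0.715. The gene at 2-fold or more with the smallest p in that test was Fat4, an atypical cadherin, at -1.77 in low and -1.09 in high freezing arrays. Cartpt, which encodes the CART peptide, had one of the widest gaps in the other direction, 1.23 against 2.35 (limma's adjusted p = 0.774).

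**Figure D2:**
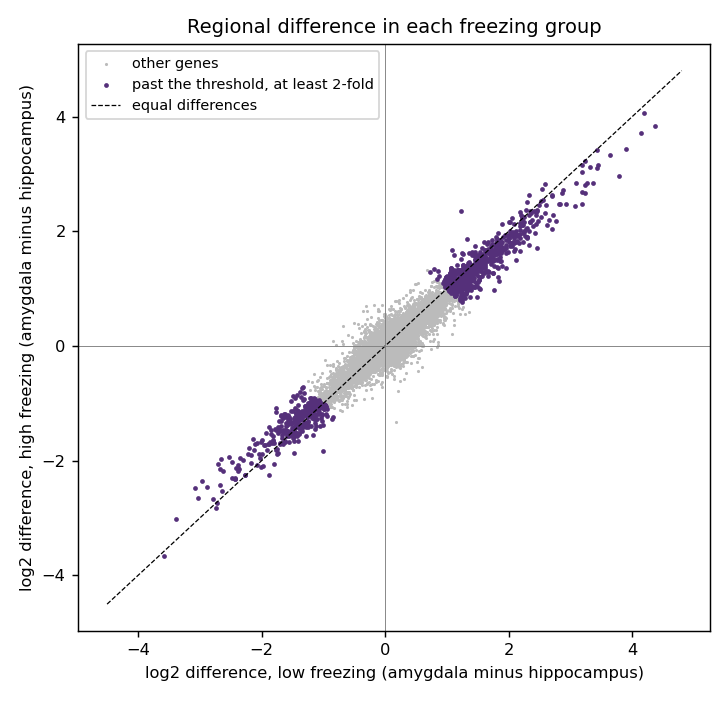
Each point is 1 of 12491 genes, with its log2 difference (amygdala minus hippocampus) in the low freezing arrays on x and in the high freezing arrays on y; purple points passed the threshold at 2-fold or more. The points follow the dashed line of equal differences, and the outer ones lie mostly on its flatter side, with 70.6% of the 2-fold probe sets larger in the low freezing arrays.

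The genes highest in the amygdala over the hippocampus are known from several cell types. Which cells of these samples made the RNA was not measured. Penk, the precursor of enkephalin peptides, ranged from 1641 to 4894 intensity units in the amygdala with a median of 3391, and from 138 to 259 with a median of 177 in the hippocampus. The lowest amygdala value was more than any hippocampal one, and the difference was 17.5-fold (adjusted p = 6.65e-22). Ecrg4, which encodes a secreted peptide made by choroid plexus epithelium, ranged from 664 to 2110 (median 1430) against 21.4 to 232 (median 59.6), 17.2-fold higher. Isl1, a LIM homeodomain factor of striatal and cholinergic neurons, ranged from 172 to 414 (median 259) and did not exceed 9.52 in the hippocampus, where its median of 1.13 is close to no signal; the difference was 15.2-fold. That fold and the gene's rank depend on the offset, with log2 differences of 2.30 to 6.58 over the alternatives run. Clic6, a chloride channel protein of choroid plexus, was 12.7-fold higher, and Scn4b, the sodium channel beta subunit of striatal neurons, 11.2-fold.

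The next genes in that order included genes known from oligodendrocytes, neurons and choroid plexus. Klk6, a serine protease of oligodendrocytes, stood at 405 ± 65.1 against 23.9 ± 9.97 units (SD, n = 12 each), 10.7-fold higher. Shox2, a homeodomain factor of thalamic neurons, was 10.3-fold higher but the least even of these genes, from 47.9 to 675 units among amygdala arrays. Unc13c, a priming factor of synaptic vesicles, stood at 1563 ± 314 against 148 ± 27.5 units and was 9.62-fold higher. Foxp2, a forkhead factor of striatal and intercalated neurons, was among the most even, at 422 ± 52.8 against 31.9 ± 10.5 units and 9.29-fold higher. Lhx8, which specifies forebrain cholinergic neurons, was 8.63-fold higher, Gpr6, a receptor of striatopallidal neurons, 8.61-fold, and the potassium channel genes Kcnj13 and Kcne2, both active in choroid plexus, 9.84- and 8.29-fold. For these genes, as for all 15 at the head of the list, the ranges of the regions did not touch. The same was true of 1384 of the 1533 probe sets past the threshold at 2-fold or more, so it is not particular to the leading genes.

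Markers of granule and pyramidal cells were among the genes highest in the hippocampus. Lct, the lactase gene and a known marker of dentate granule cells, ranged from 201 to 354 units (median 301) in the hippocampus and from 1.27 to 27.5 (median 8.64) in the amygdala, 12.3-fold (limma's adjusted p = 4.08e-20). Neurod6, a bHLH factor of pyramidal neurons, ranged from 1017 to 1519 (median 1346) against 37.3 to 206 (median 151), 9.18-fold. All 24 values of these genes fell on their region's side. Ccn3, a matrix protein of CA1, was 7.18-fold higher in the hippocampus, and Dsp, the desmosomal plaque protein desmoplakin that marks granule cells, 6.87-fold (362 ± 59.8 against 39.5 ± 11.4 units, SD, n = 12 each).

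Below them lay C1ql2, a secreted synaptic organiser of mossy fibres (6.86-fold), Smoc2, a matricellular protein (6.62-fold), Iqgap2, a scaffold of the actin cytoskeleton (6.62-fold), and Neurod1 (6.36-fold, 374 ± 27.8 against 47.6 ± 17.4 units). Fibcd1, an acetyl-binding receptor of CA1, was 6.32-fold higher, Cabp7, a neuronal calcium-binding protein, 5.85-fold, Slc26a4, the anion exchanger pendrin, 5.30-fold, and Nptx1, a pentraxin that clusters AMPA receptors, 5.29-fold (2772 ± 153 against 528 ± 135 units). Fezf2, a zinc finger factor of deep-layer cortical neurons, was 5.21-fold higher, at 202 to 402 units against 15.5 to 90.4. Here too the 15 leading genes had ranges that did not touch, as did 1384 of the 1533 probe sets at 2-fold or more in either direction.

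**Figure D3:**
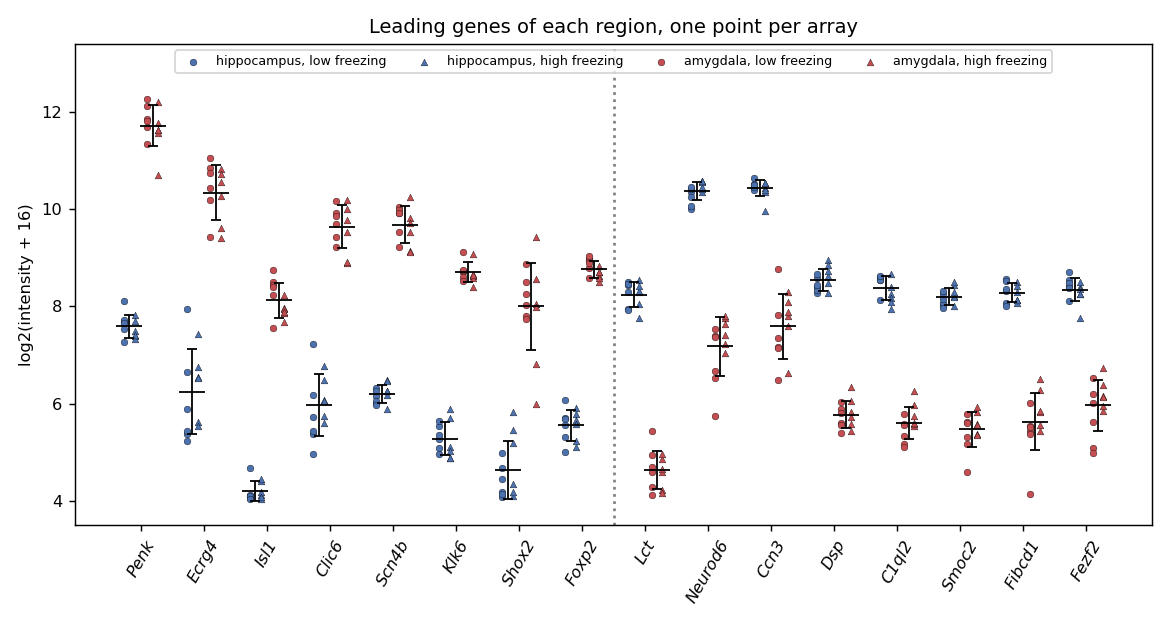
Each point is the log2(intensity + 16) of 1 array for 8 leading genes of the amygdala (left of the dotted line) and 8 of the hippocampus (right); bars are the mean and SD of 12 arrays. No gene shown has overlapping regions, as was so for 1384 of the 1533 probe sets at 2-fold or more. Shox2 runs from 47.9 to 675 units among amygdala arrays.

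Promoters of these 30 leading genes were searched for 4 motifs on both strands: CAGATG, an E-box bound by NEUROD factors, TAATTA, the core bound by many homeodomain factors, AAAGGTCA, the element of NR4A receptors, and TGACGTCA, the cAMP response element. RefSeq promoters of build GRCm38.p6, 250 bases before to 50 after a transcription start, were listed for 22 of the 30, and 4 held a motif: Klk6, Kcne2 and Gabra5 the E-box and Gpr6 the cAMP response element. Shown are Gpr6, the only one with that element, on chr10:41072241-41072540 (minus strand, motif from 78 bases before the start), and Gabra5, the GABA-A receptor alpha-5 subunit and the only one of the 4 that was higher in the hippocampus (5.23-fold), on chr7:57510010-57510309 (minus strand, motif from 223 bases before the start). Capitals mark the motif.
Gpr6: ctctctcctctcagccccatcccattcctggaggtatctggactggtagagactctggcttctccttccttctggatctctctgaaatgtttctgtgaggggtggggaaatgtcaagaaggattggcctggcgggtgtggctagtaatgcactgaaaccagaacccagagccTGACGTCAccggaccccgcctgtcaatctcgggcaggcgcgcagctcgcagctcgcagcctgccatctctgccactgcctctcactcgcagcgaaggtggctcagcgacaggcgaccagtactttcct
Gabra5: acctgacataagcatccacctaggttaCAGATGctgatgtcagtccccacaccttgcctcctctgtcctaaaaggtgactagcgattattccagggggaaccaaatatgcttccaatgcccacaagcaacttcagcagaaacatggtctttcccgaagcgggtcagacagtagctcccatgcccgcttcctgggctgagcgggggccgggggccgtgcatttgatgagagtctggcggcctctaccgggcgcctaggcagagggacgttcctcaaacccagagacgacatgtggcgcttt

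The E-box was in 17.2% of all 32851 promoters listed, in 11.7% of those of genes tested, in 14.8% of those of genes at least 2-fold higher in the amygdala and in 12.0% of those at least 2-fold lower. For the homeodomain core the shares were 5.29%, 2.55%, 4.38% and 4.2%, for the NR4A element 1.51%, 0.917%, 0.625% and 0.601%, and for the cAMP response element 1.79%, 2.93%, 1.88% and 0.901%. The median count of CpG pairs was 7 over all promoters, 20 for genes tested, 13 for the amygdala group and 17 for the hippocampal group. A match is a run of letters and not a measured binding site.

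Most markers of dentate granule cells and of CA1 pyramidal cells were lower in the amygdala. Of 13 measured markers of dentate granule cells 12 were lower and 1 higher, 7 of them at least 2-fold lower, with a median log2 difference of -1.52; the higher one was Dock10, a guanine nucleotide exchange factor, at 0.50. Of 9 markers of CA1 pyramidal cells 8 were lower and 1, Wfs1, higher (0.34), with a median of -1.81. Pou3f1, a POU factor of CA1, ranged from 60.6 to 153 units against 428 to 592, a log2 difference of -2.06, and the protease inhibitor gene Spink8 4.10-fold. The summed intensity of the granule cell list was 5293 to 6268 in hippocampus arrays and 3137 to 3715 in amygdala arrays, and that of the CA1 list 4549 to 5659 and 1970 to 3026, without overlap in either case.

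The markers of CA2 and CA3 pyramidal cells split, 7 lower and 4 higher of 11. Lower were Cpne4, a copine (2.53-fold), and Rgs14, a brake on plasticity in CA2 (2.16-fold). Higher were Sostdc1, a BMP antagonist that choroid plexus also makes (7.75-fold, 288 to 1060 against 24.7 to 119 units), Coch, an extracellular matrix protein (3.94-fold), and Pcp4, a calmodulin regulator that striatal and thalamic neurons also express (3.32-fold, 6111 ± 979 against 1823 ± 275 units), with Cacng5 at 0.56 on the log2 scale. The list's median was -0.66 on the log2 scale. Its sums were higher in the amygdala, 6794 to 9445 against 3876 to 4854, a gap carried by Pcp4.

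The markers of the amygdala's own nuclei did not move as a block. Of 7 measured markers of the basolateral nuclei 4 were lower in the amygdala, 2 higher and 1 did not pass, with a median of -0.90. Grp, which encodes gastrin-releasing peptide, ranged from 23.5 to 116 units in the amygdala and from 272 to 472 in the hippocampus, 4.69-fold lower; Rspo2, a secreted Wnt agonist, ranged from 28.0 to 136 against 224 to 329, 3.74-fold lower. Higher were Otof, the vesicle protein otoferlin (2.91-fold), and Cyp26b1, which breaks down retinoic acid (2.01-fold, with overlapping ranges). The list's sums, which its brighter members carry, were 1017 to 2248 in the amygdala and 2324 to 2703 in the hippocampus. Its mean log2 level per array overlapped between regions: amygdala high 7 (8.05) and low 6 (7.98) lay within the hippocampal range of 7.85 to 8.16.

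Central nucleus markers were mostly higher, 9 of 12 with 2 lower, a median of 1.12 and sums of 4512 to 5635 against 3055 to 3798. Prkcd, the protein kinase C delta of central amygdala and thalamic neurons, ranged from 319 to 2285 units in the amygdala (median 1048) and from 130 to 193 in the hippocampus, 5.55-fold higher. Tac2, the neurokinin B precursor, was 3.87-fold higher, Cartpt 3.46-fold and Dlk1, a noncanonical Notch ligand, 3.02-fold. The 4 measured markers of intercalated cells were higher, with a median of 2.49, among them Meis2, a TALE homeodomain factor (3.87-fold), and Tshz1 (1.85-fold, 359 to 525 against 189 to 268 units). All 4 measured markers of the medial nucleus were higher, with a median of 0.54, and 4 more were too dim to be tested. With array medians set equal, and with quantile normalization, 3 were higher. Tac1, the substance P precursor, was 4.28-fold higher. Lhx6 (1.23-fold) and Esr1, the oestrogen receptor alpha (1.31-fold), overlapped between regions and did not pass in both freezing groups.

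Markers of tissue around the amygdala were higher as well, and their part in the differences above was not tested. Of 18 striatal genes 17 were higher and 1, Ano3, lower; sums ran from 7658 to 18088 in the amygdala and from 2827 to 3157 in the hippocampus. Drd1, the D1 dopamine receptor, ranged from 204 to 834 units against 32.2 to 82.0 and was 8.11-fold higher, and Ppp1r1b, the phosphatase inhibitor DARPP-32, from 453 to 1348 against 50.3 to 113. Drd1 stands on both the striatal and the intercalated list. Zic1 stands on the thalamic list and on that of globus pallidus and basal forebrain. Other marker lists share members too, so the lists are not independent. Of 7 genes of globus pallidus and basal forebrain 6 were higher and 1 did not pass, with sums of 2061 to 4530 against 700.5 to 938; Ngfr, the p75 neurotrophin receptor of cholinergic neurons, was 3.72-fold higher.

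Of 13 thalamic genes 10 were higher and 3 lower, with a median of 1.78 and sums of 2506 to 9932 in the amygdala and 1819 to 2182 in the hippocampus. Ramp3, a receptor activity modifying protein, was 5.75-fold higher, Synpo2, an actin-binding protein, 4.48-fold and Zic1, a zinc finger factor, 4.23-fold, whereas Lhx9 was lower, at -1.27 on the log2 scale. Of 14 hypothalamic genes 11 were higher and none lower, with sums of 4313 to 6308 against 2542 to 4157: Ecel1, an endopeptidase-like protein, was 6.32-fold higher (268 ± 44.5 against 28.8 ± 5.64 units, SD, n = 12 each) and Baiap3, a factor of dense-core vesicle release, 5.30-fold. Oxt and Hcrt, the oxytocin and hypocretin genes, did not pass, with log2 differences of 0.26 and 0.03. Of 13 genes of choroid plexus and ependyma all were higher in the amygdala, with a median of 2.24 and sums of 14942 to 21779 against 2101 to 13699.

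Neocortical layer markers were split, 4 higher, 4 lower and 3 that did not pass of 11. Cux2, an upper-layer homeodomain factor, was 1.79-fold higher and Rorb, a nuclear receptor of layer 4, 1.82-fold, against Crym, a thyroid hormone-binding crystallin, which was 4.40-fold lower. A dimmer Cux2 probe set did not pass (0.05), while another was higher (0.73, both on the log2 scale). Of 7 genes of piriform and entorhinal cortex 4 were higher and 2 lower; Nr2f2, also named COUP-TFII, was 1.99-fold higher and Reln, the secreted glycoprotein reelin, 1.65-fold lower. Of 8 cerebellar markers 5 were too dim to be tested. Of the 3 tested, Car8 and Cbln1 were higher and Calb2 lower; Cbln1 did not pass within the low freezing arrays (0.16 on the log2 scale, limma's adjusted p = 0.478), and its other probe sets did not pass over all arrays.

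The amygdala arrays differed among themselves along these tissue markers. Amygdala high 12 had the highest thalamic sum (9932) and the lowest striatal sum (7658). Amygdala high 7 stood at the other end, with the lowest thalamic sum (2506), the highest basolateral sum (2248) and a striatal sum of 17850. Members of these lists, named here after the arrays were compared, had these values: Shox2 was 675 units in amygdala high 12 and 47.9 in high 7, and Prkcd, a central nucleus marker here, 2285 and 319. Drd1 went the other way, with 204 in high 12, the lowest of the 12 arrays, and 834 in high 7, the highest.

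Other genes also varied between arrays, and their relation to these sums was not tested. Avp, the vasopressin gene, was 990 units in amygdala low 4 and 115 to 207 in the other amygdala arrays, all above the hippocampal range of 4.16 to 30.5. Pmch, the melanin-concentrating hormone precursor, ranged from 59.7 to 524 units, with a SD of 1.03 on the log2 scale against 0.41 in the hippocampus. Ttr, the transthyretin gene of choroid plexus, ranged from 12546 to 18279 units in the amygdala and from 1776 to 13062 in the hippocampus, so that the regions overlapped, with a log2 SD of 0.15 against 1.07. Means of its 4 probe sets in the amygdala lay between 12699 and 14676 units, and whether the signal was near saturation there was not tested.

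**Figure D4:**
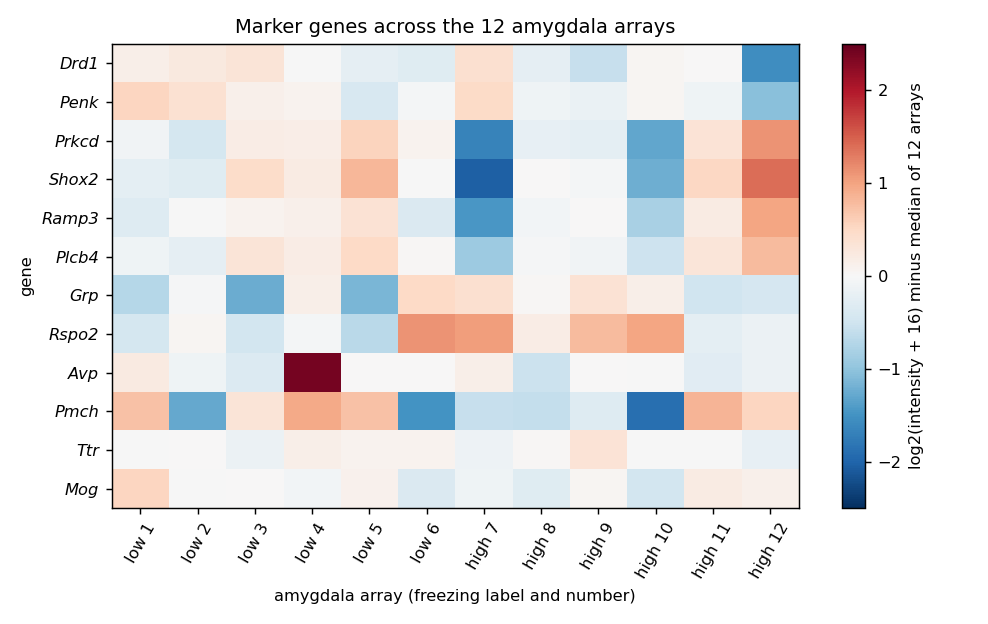
Colour gives the log2(intensity + 16) of each gene (rows) in each amygdala array (columns), less the gene's median over the 12 arrays. Prkcd, Shox2, Ramp3 and Plcb4 are high in array 12 and low in arrays 7 and 10, Drd1 and Penk are low in array 12, and Avp stands out in array 4 alone.

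Of 6 gene pairs compared over the 12 amygdala arrays, 1 passed the threshold. Drd1 and Drd2, the dopamine receptors of the direct and indirect striatal pathways, rose and fell together (Pearson's r = 0.935, Spearman's rank correlation 0.972), with permutation p = 2.00e-05 for both, the smallest that 100000 resamples allow (adjusted p = 0.00012 over 6 pairs, n = 12). Without the 2 arrays farthest from the median of Drd1 r was 0.943, and it was 0.936 among the 6 low and 0.950 among the 6 high freezing arrays. The other pairs did not pass: Avp with Pmch gave r = 0.321 (permutation p = 0.293), Ttr with Avp 0.306 (p = 0.233, permutation), Ttr with Penk 0.0624 (p = 0.873, permutation), Penk with Slc17a7, the cortical vesicular glutamate transporter, -0.0546 (p = 0.893, permutation), and Mog with Tcf7l2 -0.0754 (p = 0.819, permutation). Their Spearman's rank correlations lay between -0.259 and 0.336, with permutation p from 0.288 to 0.937, and their adjusted p for r between 0.585 and 0.893. Without the 2 arrays farthest from the median of the first gene, r was 0.565 for Penk with Slc17a7 and -0.516 for Ttr with Penk. Mog with Tcf7l2 gave -0.757 among the 6 low and 0.485 among the 6 high freezing arrays. With 12 arrays these pairs are not settled.

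The spread between arrays was itself uneven. Over all probe sets the median SD was 0.20 on the log2 scale in the amygdala and 0.19 in the hippocampus, and 54.9% varied more in the amygdala. Among probe sets at least 2-fold lower in the amygdala it was 0.28 and 0.16, and 87.7% of them varied more among amygdala arrays. Among those at least 2-fold higher it was 0.25 and 0.24, with 53.3% varying more in the amygdala. Both sets were chosen by a difference in level, and the part of the level in the spread was not tested. For Neurod6 the range was 37.3 to 206 units in the amygdala against 1017 to 1519, and for Nr4a2, a nuclear receptor, 54.9 to 179 against 478 to 897.

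Glial genes were higher in the amygdala, led by the oligodendrocyte lineage. All 13 measured markers of oligodendrocytes were higher, with a median of 2.09 and sums of 40793 to 55567 against 15424 to 20581. All 8 measured genes of the precursor list were higher, with a median of 1.09. That list also holds genes of the whole lineage and of newly forming oligodendrocytes. Its 4 members at least 2-fold higher were Bcas1, Olig1, Olig2 and Enpp6, and not Pdgfra or Cspg4. Mag, a myelin adhesion molecule, ranged from 1022 to 1724 units against 221 to 374 and was 4.95-fold higher, and Bcas1, which marks cells that begin to myelinate, 3.84-fold. Olig1 and Olig2, the bHLH factors of the lineage, were 2.48- and 2.49-fold higher, and Enpp6, a choline phosphodiesterase of newly forming oligodendrocytes, 2.55-fold. Among precursor genes Gpr17 differed by 0.88, Pdgfra by 0.42 and Cspg4 by 0.30 on the log2 scale.

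Other glial and vascular lists moved less. Of 14 astrocyte markers 9 were higher and 2 lower, with a median of 0.28. Agt, the angiotensinogen gene, stood out at 5.59-fold (481 to 1038 against 73.4 to 150.5 units), S100b was 2.40-fold higher and the water channel gene Aqp4 1.56-fold. A dimmer Aqp4 probe set did not pass (0.12 on the log2 scale). The glutamate transporter genes Slc1a2 and Slc1a3 were the 2 lower ones, at -0.23 and -0.20. Of 11 microglial markers 9 were higher and none lower, none by 2-fold, with a median of 0.36 and sums of 5074 to 7031 against 3931 to 4642; 5 passed in both freezing groups, and 7 were higher once array medians were set equal; the cysteine protease gene Ctss was 1.46-fold higher. Of 11 endothelial and mural genes 5 were higher and 6 did not pass, among the latter Cldn5, Pecam1 and Cdh5, which define endothelium. In the fibroblast list Igf2 (2.85-fold) and Igfbp2 (3.49-fold) were higher and Dcn, the proteoglycan decorin, lower (2.72-fold, 151 to 335 against 505 to 825 units), while the collagen genes Col1a1 and Col3a1 did not pass. Ptprc, the leukocyte antigen CD45, was higher by 1.02 on the log2 scale.

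Factors of pallial neurons were mostly lower in the amygdala and those of subpallial neurons mostly higher. Of 20 measured factors of pallial excitatory neurons 16 were lower in the amygdala and 2 higher, 12 of them at least 2-fold lower, with a median of -1.21. Besides Neurod6, Neurod1 and Fezf2 they included Neurod2 (-1.96), Lhx2 (-1.86), Zbtb18 (-1.73), Tbr1 (-1.53) and Emx2 (-1.36, all log2). The 2 higher ones were Cux1 (0.88) and Cux2 (0.84). Of 22 factors of subpallial GABAergic neurons 16 were higher and 2 lower, 13 at least 2-fold higher, with a median of 1.29. Six3 was 5.36-fold higher (226 ± 28.4 against 31.1 ± 17.2 units, SD, n = 12 each), Rarb, the retinoic acid receptor beta, 4.05-fold, and Pbx3 (2.20), Meis1 (2.17), Dlx6 (1.27) and Dlx5 (1.23) followed on the log2 scale. The 2 lower ones were Prdm8 (-2.37), a factor of pallial neurons too, and Bcl11b (-0.79), which hippocampal neurons also express. Dlx1 and Dlx2, at -0.03 and 0.26, did not pass.

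Of 14 measured diencephalic factors 11 were higher and 1 lower, with a median of 0.81 and 14 more too dim to test. Otx2, which choroid plexus also expresses, was 5.28-fold higher and Tcf7l2, a Wnt effector of thalamic neurons, 2.72-fold (38.4 to 220 against 10.9 to 37.9 units). Of 19 glial factors 12 were higher and 5 lower; Sox10 was 4.27-fold and Myrf, the myelin regulatory factor, 4.24-fold higher, and Nfib, a nuclear factor I protein, 2.69-fold lower (332 ± 46.4 against 916 ± 50.3 units). Of 33 Hox genes on the array, which pattern hindbrain and spinal cord, 32 were too dim to be tested, and Hoxa5 did not pass.

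Ion channel genes changed in both directions, with single members far apart. Of 24 voltage-gated potassium channel genes 7 were higher and 12 lower (median -0.18). Kcna5 was 4.36-fold higher (90.1 to 208 against 17.0 to 34.9 units), Kcnh2, the ERG channel, 2.44-fold and Kcnc1, a fast delayed rectifier, 2.04-fold, while Kcng2, a silent subunit, was 2.81-fold lower. A dimmer Kcnc1 probe set did not pass (-0.11), while another was higher (0.70, both on the log2 scale). Of 18 inward rectifier and two-pore genes 5 were higher and 5 lower: Kcnk13 was 2.71-fold higher, and the G protein-gated subunits Kcnj3 and Kcnj6 were 2.41- and 1.98-fold lower. Of 8 sodium channel genes 2 were higher and 4 lower. The beta subunits lay farthest apart, Scn4b 11.2-fold higher and Scn3b 2.90-fold lower (502 to 782 against 1685 to 2075 units), and among the pore-forming subunits Scn1a was 1.66-fold higher and Scn2a 1.54-fold lower.

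Of 20 calcium channel genes 7 were higher and 11 lower. The alpha2delta subunits, which carry channels to the membrane, went opposite ways: Cacna2d2 was higher by 1.81 on the log2 scale (403 to 696 against 109 to 182 units) and Cacna2d1 2.20-fold lower (472 to 677 against 1173 to 1323 units). Cacna1e, the pore of R-type channels, was 2.14-fold lower. Of 14 HCN and TRP channel genes 4 were higher and 5 lower, with Hcn2 1.91-fold higher and the canonical TRP channels Trpc6 (3.24-fold) and Trpc4 (2.71-fold) lower; Trpc6 is one of the granule cell markers above.

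Adhesion and guidance genes showed 1 family with a clear lean. Of 16 Eph receptor and ephrin genes 9 were lower in the amygdala and 3 higher, and all 6 that differed by at least 2-fold were lower (median -0.52). All were receptors: Epha7 was 4.86-fold lower (69.3 to 179 against 509 to 797 units), Epha3 2.78-fold, Epha6 2.61-fold and Epha4 2.45-fold, and Epha5 and Ephb6 were at -1.07 and -1.01 on the log2 scale. The 3 higher members were the ligands Efna5 (0.89) and Efnb3 (0.70) and the receptor Ephb1 (0.78).

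The other families were mixed. Of 31 semaphorin, plexin and neuropilin genes 14 were higher and 10 lower: the ligand Sema3a was 3.22-fold higher (147 to 256 against 32.4 to 58.4 units), its receptor Nrp1 2.60-fold lower (257 to 621 against 931 to 1331 units), and Plxnb3, a plexin of oligodendrocytes, 3.75-fold higher. Of 30 Slit, Robo, netrin and contactin genes 11 were higher and 13 lower; Cntn2, an axonal and glial adhesion molecule, was 3.58-fold and Unc5b, a netrin receptor, 2.63-fold higher, and Slit1 (-1.14) and Slit3 (-1.03) were lower on the log2 scale. Among 14 cadherins 7 were higher and 4 lower, with Cdh19 3.08-fold higher and Cdh9, an adhesion molecule of mossy fibre synapses, 2.32-fold lower. Among 23 protocadherins 5 were higher and 8 lower, and Pcdh20 was 4.75-fold lower (117 to 426 against 1000 to 1286 units) (median 0.00166 on the log2 scale, -0.07 once array medians were set equal).

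Secreted signals and their receptors were likewise divided. In the Wnt pathway 11 of 28 genes were higher and 9 lower. The lower ones included the secreted Dkk3 (4.75-fold, 125 to 284 against 948 to 1212 units) and the agonists Rspo3 (2.94-fold) and Rspo2, and 6 of the measured Wnt ligands, from Wnt11 (-0.33) to Wnt9a (-0.70) on the log2 scale. The higher ones included 7 frizzled receptors, from Fzd3 (0.22) to Fzd5 (1.00), and the antagonist Sfrp5 (2.56-fold). No measured Wnt ligand was higher past the threshold and no frizzled was lower.

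In the BMP and TGF beta families 11 of 32 were higher and 10 lower; the BMP antagonist Chrd was 2.71-fold lower, Bmp6 1.94-fold higher, and the ligands Tgfb3 and Tgfb2 went opposite ways (0.91 and -0.86 on the log2 scale). Of 15 Fgf genes 7 were higher and 2 lower, with Fgf1 2.98-fold and its receptor Fgfr2 2.38-fold higher and Fgf13, an intracellular partner of sodium channels, 2.21-fold lower (1378 to 1767 against 3269 to 3903 units). Of 12 retinoic acid genes 6 were higher and 1 lower. Among the higher were, on the log2 scale, the receptors Rarb (2.02) and Rxrg (1.32), the binding protein gene Crabp1 (1.81) and the synthesising enzyme Aldh1a1 (0.97). Of 8 thyroid hormone genes 3 were higher and 5 lower, with Hr, a receptor corepressor, 1.98-fold higher and the lipogenic gene Thrsp 1.87-fold lower. A dimmer Hr probe set did not pass (0.16 on the log2 scale).

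Of 28 neuropeptide and cerebellin genes 16 were higher, 6 lower and 6 did not pass, with 11 at least 2-fold higher. Beyond Penk, Tac1, Tac2, Cartpt, Avp and Pmch, those were, on the log2 scale, Trh (1.64), Gal (1.53), Pdyn (1.35), Nts (1.14) and Crh (1.10). Lower were Grp, Cck (-1.89) and Vip (-1.76), which mark cortical neurons, with Nmb (-0.41), Cbln2 (-0.40) and Sst (-0.20). Peptide receptors leaned less: 7 of 19 were higher and 9 lower, and the 5 at least 2-fold lower were receptors for somatostatin, neuropeptide Y and VIP. Sstr4 was 4.82-fold lower (80.4 to 154 against 574 to 746 units), Sstr3 2.79-fold, Npy2r 2.37-fold and Vipr1 2.10-fold.

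Inhibitory receptors differed by subunit. Of 9 GABA-A genes 4 were higher and 3 lower; besides Gabra5, 1484 to 1796 units in the hippocampus against 219 to 487, Gabra2 was 1.68-fold lower, while Gabrg1 (2.42-fold) and Gabrd, a subunit of extrasynaptic receptors (2.08-fold), were higher. Of 5 genes of glycine receptors and transport 3 were higher, Glra3 2.85-fold (83.5 to 180 against 23.2 to 54.8 units), Glra2 2.09-fold and the glial glycine transporter Slc6a9 2.65-fold. Gphn, the scaffold gephyrin, was lower by little (-0.12 on the log2 scale); it did not pass within the low freezing arrays or with quantile normalization, and its direction reversed when its probe sets were averaged. Glrb, the beta subunit, did not pass (0.09). Of 8 monoamine genes 5 were higher and 1 lower; Ddc, the decarboxylase that makes dopamine and serotonin, was 4.03-fold higher (231 to 410 against 54.4 to 89.5 units), Maob 1.49-fold and Hdc, which makes histamine, 2.00-fold at low intensity.

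Genes of G protein and cyclic nucleotide signalling held several of the wider gaps. Of 16 Rgs genes 11 were higher and 5 lower, and none failed to pass (median 0.66): Rgs9, the striatal member, was 5.78-fold higher, Rgs16 4.09-fold (54.4 to 345 against 10.9 to 40.4 units) and Rgs4 2.16-fold. Of 16 phosphodiesterases 8 were higher and 6 lower; Pde8a, which is specific for cAMP, was 4.12-fold higher (397 to 567 against 75.1 to 171 units), Pde7b 3.74-fold, Pde1c 3.51-fold and the striatal Pde10a 3.15-fold. The cyclases divided evenly, 4 higher and 4 lower of 11. Adcy5, the main striatal adenylyl cyclase, was higher by 1.62 and Gucy1a1, a nitric oxide receptor subunit, by 1.70 on the log2 scale, and the calcium-stimulated Adcy1 (999 to 2111 against 3284 to 4556 units, 2.80-fold) and Adcy9 (2.51-fold) were lower.

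Of 26 G protein subunits 12 were higher and 7 lower, with Gng11 3.90-fold and Gnal, the olfactory and striatal stimulatory alpha subunit, 2.51-fold higher. In the phospholipase C and diacylglycerol kinase family 7 of 19 were higher and 6 lower: Plcb4 was 4.10-fold higher (488 to 1627 against 177 to 253 units), Plcl1 2.87-fold higher and Dgkz, which ends diacylglycerol signals, 2.47-fold lower (1330 to 1932 against 3400 to 4492 units). Plcb4 was highest in amygdala high 12 and lowest in high 7, the order of the thalamic genes.

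Synaptic and axonal genes changed by isoform. Of 20 synaptotagmin and complexin genes 8 were higher and 9 lower; Syt2, a fast calcium sensor, was 5.16-fold higher (213.5 to 370.5 against 29.7 to 67.3 units), Syt9 3.19-fold higher and Syt17 3.31-fold lower. Of 15 neurofilament and axonal genes 9 were higher and 4 lower, with Nefh 2.36-fold and Nefm 1.87-fold higher and Nefl not past the threshold (-0.05). Of 10 genes of nodes and paranodes 7 were higher and 2 lower, with Nfasc at 1.91-fold and Epb41l3 at 1.82-fold higher and Nrcam 1.66-fold lower; myelin genes moved the same way in the same arrays, and their part was not tested. Hapln2, a matrix protein of nodes, was 4.59-fold higher, while of the perineuronal net genes Acan and Hapln4 did not pass and Hapln1 was lower by 0.50 on the log2 scale.

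Of 23 calcium-binding protein genes 10 were higher and 9 lower. Pcp4l1, a relative of Pcp4, was 4.88-fold higher (508.5 to 1071 against 105 to 177 units) and Pvalb, the parvalbumin gene, 3.52-fold (1092 to 2385 against 443 to 610 units). Cabp7, Hpca (-1.05 on the log2 scale), Ncald (-0.89) and Hpcal4 (-0.89), all neuronal calcium sensors, were lower.

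Imprinted genes, expressed from 1 parental allele in at least some tissues, were higher in the amygdala in 18 of 22 cases, lower in 1 and past no threshold in 3, with a median of 0.52. Which alleles were expressed in these samples was not measured. Of these, 6 differed by at least 2-fold: Ddc, Cdkn1c, a cell cycle inhibitor (3.59-fold, 138 to 288 against 26.5 to 76.1 units), Dlk1, Igf2, and on the log2 scale Magel2 (1.27) and Usp29 (1.09). Peg3 (0.76), Grb10 (0.95), Zdbf2 (0.80) and Sgce (0.60) followed, Snrpn was the lower one (-0.32), and Gnas, Nnat and Kcnq1ot1 did not pass. Once array medians were set equal the counts were 16 and 2. Igf2 and Cdkn1c are expressed in choroid plexus, whose markers were also higher in these arrays; their part was not tested.

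Of 20 genes of fatty acid and sphingolipid synthesis 17 were higher and 2 lower, with a median of 0.63. Ugt8a, which makes galactocerebroside, was 4.77-fold higher (1733 to 2851 against 332.5 to 559 units), Elovl7, a fatty acid elongase, 4.11-fold and Scd1, the stearoyl-CoA desaturase, 3.48-fold; Fa2h, which hydroxylates myelin lipids (1.81), Cers2 (1.51), Elovl1 (1.49) and Gal3st1 (1.39) followed on the log2 scale. Of 19 genes of cholesterol synthesis 10 were higher and 1 lower, none by 2-fold, and 8 did not pass, with Hmgcs1 at 0.34 and Insig1 at 0.44 on the log2 scale. Once array medians were set equal the cholesterol counts were 8 higher and 1 lower. Lipid synthesis also serves myelin, whose markers were higher in the same arrays, and the part of myelin in these differences was not tested.

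Energy and protein turnover genes differed by little. Of 78 oxidative phosphorylation genes 53 were higher and 2 lower at a median of 0.15, against 24 and 4 once array medians were set equal and 54 and 3 with quantile normalization, and 24 passed in both freezing groups. The 4 with the widest gaps were isoforms best known from heart, skeletal muscle or testis: Cox8b (2.85-fold, 33.8 to 138 against 1.57 to 20.5 units), Cox6b2 (2.65-fold), Cox7a1 (1.98-fold) and Cox6a2 (0.58 on the log2 scale). Of 40 cytosolic ribosomal protein genes 23 were higher and 1 lower, against 11 and 6 with centring and 18 and 10 with quantile normalization. Of 37 proteasome genes 5 were higher and 10 lower, against 4 and 17 with centring and 9 and 8 with quantile normalization, where the majority changes side narrowly. Of 13 glycolysis genes 3 were higher and 5 lower; the lactate dehydrogenase genes parted, Ldhb 1.75-fold higher (2873 to 4081 against 1689 to 2208 units) and Ldha 1.39-fold lower, and Pfkl, the liver-type phosphofructokinase, was 1.89-fold lower.

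**Figure D5:**
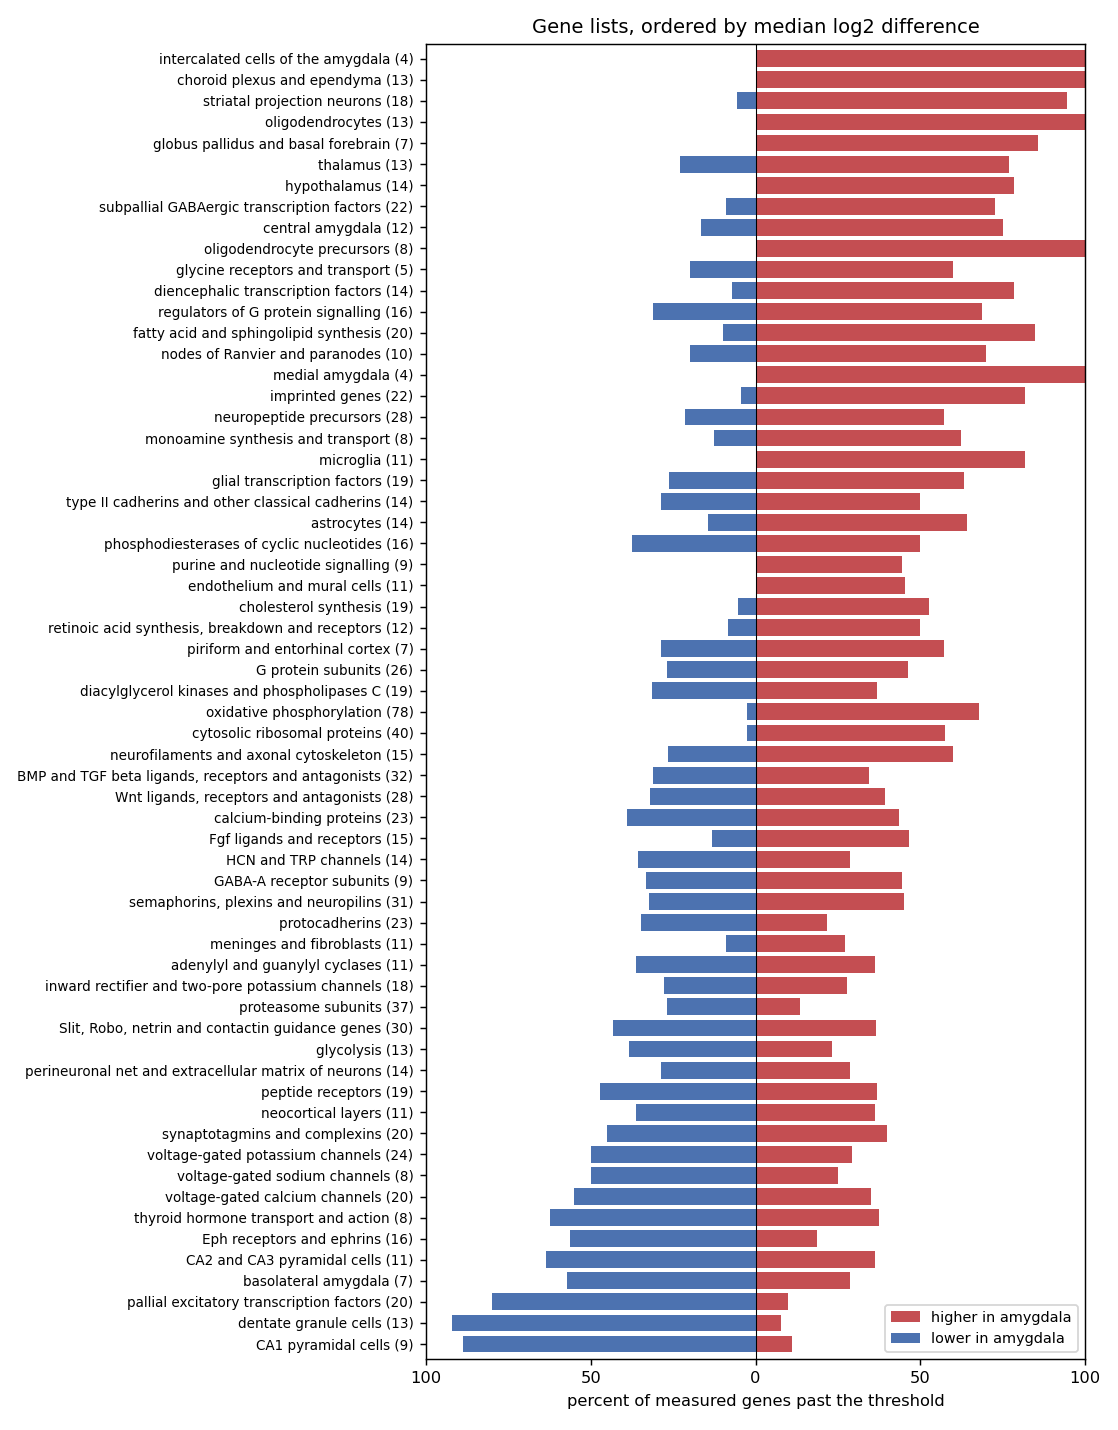
Bars give, for each gene list with at least 4 measured genes (number in brackets), the percent of measured genes higher (red, right) and lower (blue, left) in the amygdala past the threshold; lists are ordered by median log2 difference. The intercalated cell list (median 2.49) is at the top, followed by the choroid plexus, striatal and oligodendrocyte lists, with the CA1, dentate and pallial factor lists at the bottom, against 31.8% higher and 24.6% lower over all genes.

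Probe sets of 1 gene did not always move together. Of 6025 genes with several tested probe sets, 4151 (68.9%) had all of them on the same side of 0, and 164 had probe sets past the threshold in both directions. For Il1rap, the accessory protein of the interleukin-1 receptor, the brightest probe set was 2.76-fold higher in the amygdala (282.5 ± 38.2 against 92.3 ± 16.1 units, SD, n = 12 each) and another 2.41-fold lower (68.9 ± 20.7 against 186 ± 33.1 units). Ppp3cb, a catalytic subunit of calcineurin, was 1.62-fold lower at its brightest probe set and 1.99-fold higher at another. Septin8 was 1.86-fold lower and 3.40-fold higher, Arhgap12 1.84-fold lower and 2.58-fold higher, and Slc8a1, the sodium-calcium exchanger, 1.87-fold higher and 1.75-fold lower. These differences held in both freezing groups with the same sign, so the direction of these genes as a whole is not settled by this array.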

How the data were processed

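The deposited values are linear intensity values for 45101 probe sets on 24 arrays; the name of the summarising software was not given in the sources used here. Each array's mean without its highest and lowest 2% was 150, judged from the values. After leaving out 64 control probe sets and the dimmest 40% of the rest by mean over all arrays, 27022 remained. With limma 3.58.1 in R 4.3.3 a model of region plus freezing label was fitted to log2(intensity + 16) of all arrays, with limma's trended variance (21 residual df); differences within and between freezing groups came from a model with 1 mean per group. All tests are two-sided; p-values were adjusted by Benjamini-Hochberg over every tested probe set, with 0.05 as threshold. Array medians spanned 0.172 on this scale, and no further normalization was applied.

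Genes were named from the platform annotation given for the probe sets: 34945 of 45037 carried 1 symbol, 932 several and 9160 none; each gene was taken at its brightest probe set. Named are the 15 genes highest and lowest, up to 4 members of each of 65 lists with the largest difference past the threshold, 9 set genes and 5 genes with opposite probe sets; other members and genes named were picked after their values were seen. Members and lists were chosen with earlier results of these data known. The number of arrays limits the precision. The model was tested on simulated data. Correlations and array measures used permutation tests in scipy 1.17.1. Alternatives changed the offset, scaling, filter, variance prior, array weights, covariate, probe sets per gene and arrays. The labels do not say whether the replicate numbers of the titles pair the regions, and the arrays were not treated as pairs.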

Additional observations from a re-analysis of the deposited data

Results flagged for a closer look

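Genes named above that the naming rule chose, and the array measures, were looked at in each of the 4 groups of 6 arrays for an array apart from the other 5. Genes named above for other reasons were not looked at in this way. Of 780 such groups 34 held one (4.36%), against about 5% by chance, so these are listed as values only.

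Among amygdala arrays, Avp in low 4 was 990.4 units against 134 to 207 in the other low freezing arrays, and Fibcd1 in low 3 was 1.674. Low 6 held Cntn2 at 384.0 and Il1rap at 224.2, both low. High 12 was low for Rarb (102.3) and high for Arhgap12 (259.3), and high 9 was low for Myrf (346.5).

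Among hippocampus arrays, high 10 was low for Ccn3 (986.7), Fezf2 (201.9) and Rspo2 (224.4) and high for Mag (374.2) and Rgs14 (734.6). Low 2 was high for Ngfr (71.53), S100b (832.9), Fgf13 (3903.0), Gng11 (281.9) and Syt2 (62.54). High 12 was low for Kcnc1 (392.5), Chrd (138.8) and Gabra2 (755.4) and high for Pde8a (170.6). Low 4 was high for Isl1 (9.524) and Ecel1 (42.78) and low for C1ql2 (266.0). The rest were single genes or pairs: Enpp6 (9.321) and Gabra2 (423.2), low in low 1; Epha7, low in low 3 (508.7); Arhgap12, high in low 5 (486.6); Fa2h, high in low 6 (293.8); Plcb4, low in high 8 (183.2); Fgf13 (3823.0, high) and Hapln2 (38.63, low) in high 9; Kcne2 (40.32) and Slc8a1 (319.8), high in high 11.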

How the results depend on the processing

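Of 245 genes chosen by the naming rule, 229 kept their direction and their side of the threshold under every alternative in which they were tested. With the dimmest 60% of probe sets left out, 213 of the 245 were tested. The alternative with the brightest probe set per gene was not applied to these single genes. Of 9523 gene alternatives 9461 kept direction and side, 59 fell short of the threshold and 3 reversed. The 3 reversed when the probe sets of a gene were averaged: Gphn to 0.0845, Rps9 to -0.04661 and Septin8 to 0.3423 on the log2 scale. Counts of list members moved by more than 1.5 times in 41 of 1040 alternatives. Alternatives that test genes in place of probe sets start from fewer features: with the brightest probe set per gene 7166 differed (4043 higher, 3123 lower), 881 by at least 2-fold; the region difference within the low freezing arrays gave 5906, the region difference within the high freezing arrays 5566, and, in place of probe sets called in both freezing groups, 4595; with a mean over a gene's probe sets 7168 differed (3966 higher, 3202 lower), 793 by at least 2-fold, and the same 3 counts were 5907, 5476 and 4588. With an offset of 64 in place of 16, 825 probe sets differed by at least 2-fold. Leaving out each array in turn gave 13568 to 13813 probe sets (7190 to 7314 higher, 6363 to 6501 lower), 1504 to 1561 at 2-fold, 10422 to 11178 within low and 9370 to 10149 within high freezing arrays, 7762 to 8069 in both, and 0 to 0 for the difference between freezing groups. Deviations of same-numbered amygdala and hippocampus arrays from their group means correlated from -0.0794 to 0.0836. Of the 12 amygdala arrays, 5 (1, 5, 10, 11 and 12) correlated best with the hippocampus array of their own number. Only hippocampus arrays of the same freezing label were compared. How many such matches unrelated arrays would give was not tested, so these values do not settle whether same-numbered arrays are pairs. With the replicate number as a block 13792 probe sets differed, 13481 of them shared with the fit without the block, and no named call changed. Dim probe sets are limited by signal: 18015 were not tested.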

Other observations

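The dimmest 40% of probe sets, left out of the tests above, still held regional differences. When all probe sets were tested, 1455 of these 18015 (8.1%) passed limma's adjusted threshold (974 with the amygdala above, 481 below), and 46 differed by at least 2-fold, 33 higher and 13 lower. The balance of directions depended on scaling above, and these dim probe sets were not tested with array medians set equal or with quantile normalization. The genes here were picked after their values were seen. Htr1d, a serotonin receptor, stood at 44.2 ± 20.6 units in amygdala arrays against 2.04 ± 2.13 in hippocampus arrays (SD, n = 12 each). Klhl1, a neuronal actin-binding protein, stood at 42.2 ± 14.6 against 3.83 ± 2.93, and Glra1, a glycine receptor subunit, at 33.5 ± 17.4 against 5.58 ± 5.34, the direction that Glra2 and Glra3 showed above. Lower in the amygdala were Akr1c18, a steroid dehydrogenase, at 5.72 ± 3.83 against 39.6 ± 12.9, and Chrna5, a nicotinic receptor subunit, at 5.55 ± 4.18 against 27.2 ± 6.2.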
